A study of Mus musculus with 11 samples.

Results

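Unsorted cells from reprogramming cultures were compared with all 3 cell fractions sorted from such cultures at the same day. The arrays were chosen by their labels: 6 sorted arrays (CD49d+, CD73+ and CD73- cells at days 6 and 9) and 2 unsorted arrays (labelled Total, days 6 and 9), which make 8 of the 11 arrays of the study. A gene belonged to the set described here when the unsorted array lay outside the range of the 3 sorted arrays of its own day, in the same direction at days 6 and 9. By this rule 3082 of 13313 genes tested were members.

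The study measured RNA with GeneChip whole-transcript arrays to compare surface-marker fractions early in the conversion of mouse fibroblasts to pluripotent cells. Mouse embryonic fibroblasts heterozygous for Rosa-rtTA (+/-), which supplies the activator that doxycycline switches on, were infected with tetO-Sox2, tetO-Myc, tetO-Oct4 and tetO-Klf4. Doxycycline was given from the day after infection, which was counted as the start. All 8 reprogramming arrays share this genotype, the 4 factors and doxycycline, the unsorted ones included. The fractions were double-sorted for CD73, the ectonucleotidase encoded by Nt5e, or for CD49d, the integrin alpha 4 chain encoded by Itga4. In the labels CD73+ and CD49d+ cells are the poised fractions, and the CD73- fraction is non-poised. The other 3 arrays served as outside references here and entered no test: uninfected Rosa-rtTA +/- fibroblasts (MEF), the partially reprogrammed line SC4, which is a single line, and embryonic stem cells of line V6.5 (ESC). There was 1 array for each group and no replicate, and the labels do not say whether the day 6 and day 9 cells came from separate cultures.

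Fibroblasts infected with these factors lose mesenchymal gene expression and gain epithelial genes before pluripotency genes are switched on, and only a small minority of the cells completes the process. Keratins are the filament proteins of epithelial cells, and the cornified envelope is the cross-linked protein shell of outer epidermal cells. A marker sort keeps only cells inside its gates, whereas unsorted RNA comes from every kind of cell in the dish.

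The deposited values are linear intensities with a floor of 100, at which 52.1% to 54.3% of the probe sets of an array lay, and values above it had medians between 358.5 and 388.3 on the 8 arrays. A value of 100 is therefore only an upper bound, and where all 6 sorted arrays lay there a fold is given as at least that size. No read depth applies to arrays, and the number of arrays limits the precision. The sort genes followed the sort labels: unsorted cells had Nt5e intensities of 1207 and 1669 at days 6 and 9, inside the range of the sorted fractions, 331.9 to 3438 at day 6 and 292.4 to 3658 at day 9. Itga4 in unsorted cells was also inside that range at both days, at 223.5 and 311.3.

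Small departures from the sorted range were frequent in both directions, and large ones were nearly all upward. Unsorted cells lay above all 3 sorted fractions at both days in 1641 genes (12.3% of those tested) and below them in 1441 (10.8%), and in a further 341 genes (2.56%) they lay outside in opposite directions at the 2 days. When a distance of at least 0.5 log2 units from the nearest sorted array was asked for at both days, 92 genes were above (0.691%) and 5 below (0.0376%). At 1 log2 unit, which is 2-fold, 34 were above (0.255%) and 1 below (0.00751%). Of the 1641 genes above the range, 63 were at the floor on all 6 sorted arrays and so had entered the analysis only through the unsorted arrays. The same was true of 10 of the 92.

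**Figure D1:**
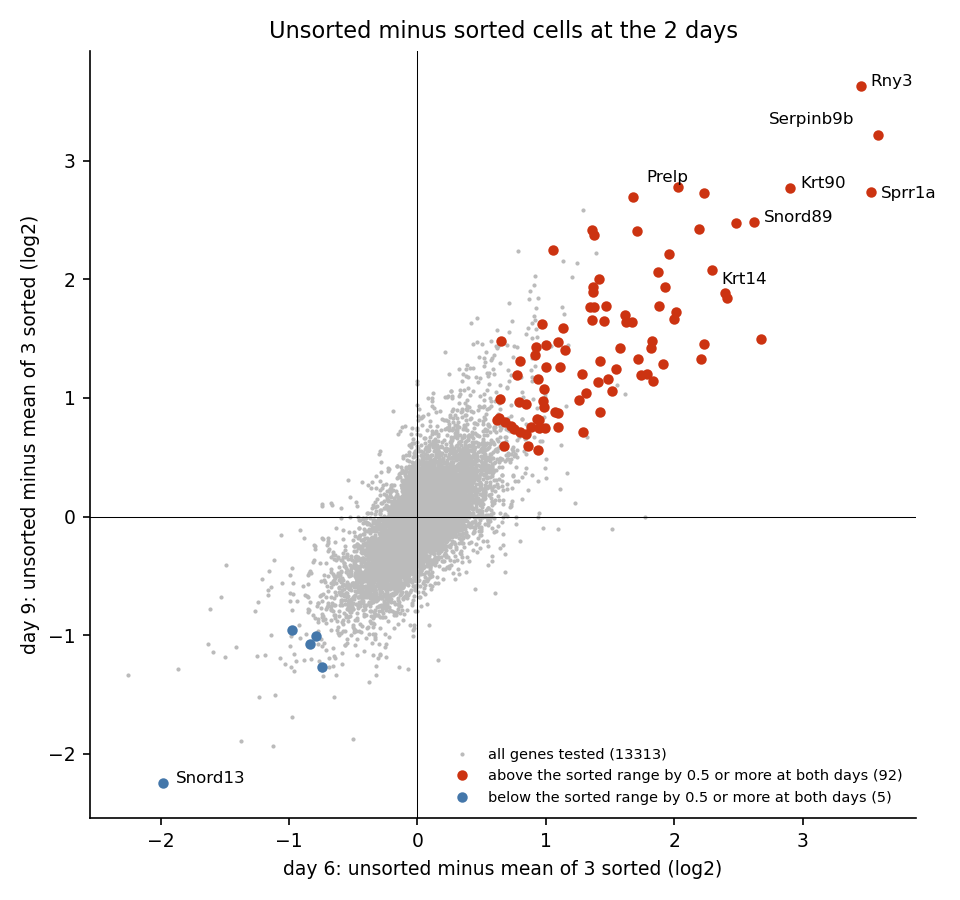
Difference between unsorted cells and the mean of the 3 sorted fractions (log2) at day 6 (horizontal axis) and day 9 (vertical axis), 1 point per gene for 13313 genes. Red points are the 92 genes above the sorted range by 0.5 or more at both days and blue points the 5 genes below it, of which Snord13 lies farthest down.

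The same rule was applied with each sorted fraction in the place of the unsorted cells. CD49d+ cells were above the other 3 populations in 1385 genes (10.4%) and below them in 906 (6.81%), by 0.5 or more in 35 (0.263%) and 20 (0.15%), and by 1 or more in 3 (0.0225%) and 0 (0.0%). For CD73+ cells these numbers were 1625 (12.2%) and 2220 (16.7%), then 49 (0.368%) and 69 (0.518%), and at 1 or more 7 (0.0526%) and 18 (0.135%). For CD73- cells they were 1829 (13.7%) and 1308 (9.82%), then 29 (0.218%) and 84 (0.631%), and 2 (0.015%) and 16 (0.12%). By 1 log2 unit or more, unsorted cells had the most genes above the other populations, and CD73+ and CD73- cells had most of the genes below.

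**Figure D2:**
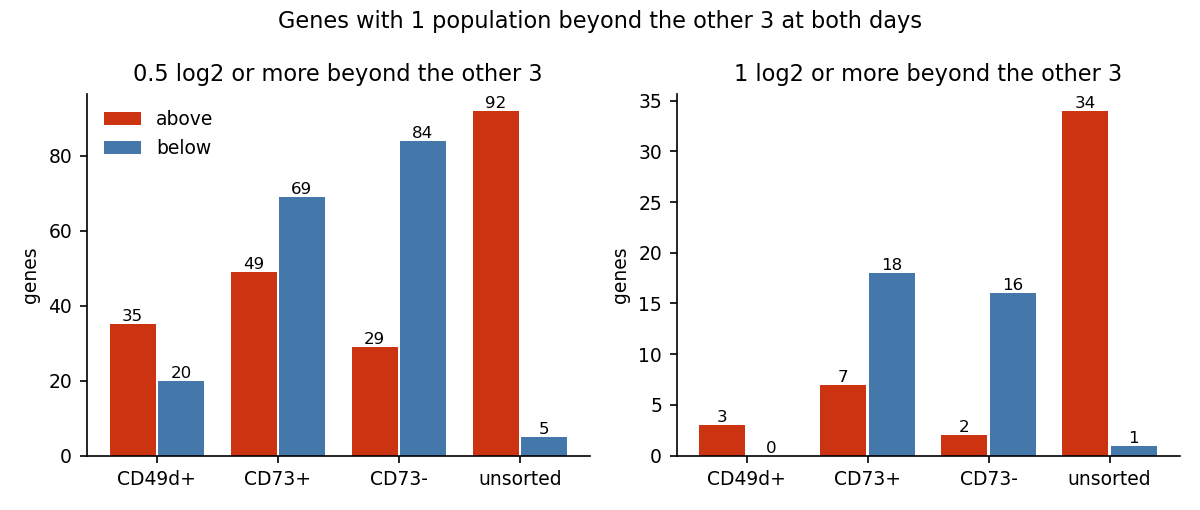
Number of genes (vertical axis) in which 1 population lay above (red) or below (blue) the other 3 at both days, by at least 0.5 (left) or 1 (right) log2 units. Unsorted cells have 92 and 34 genes above the others but 5 and 1 below.

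Differences were also tested with limma on all 13313 genes, as unsorted cells minus the mean of the 3 fractions with a term for day. In this fit the error, given below as ± SE, is how far the population differences disagree between the 2 days, so the p-values measure agreement between days only. At a Benjamini-Hochberg adjusted p under 0.05, 1137 genes passed (8.54%), 554 higher (4.16%) and 583 lower (4.38%) in unsorted cells. Range rule and test read the same values, so neither supports the other: 882 of the 3082 members passed, and 255 of the genes that passed lay inside the sorted range on at least 1 day. When the spread among the 3 fractions was counted as error, in a model of sorted or unsorted cells and day, 59 genes were higher (0.443%) and 4 lower (0.03%). With each array centred on its median above the floor, 469 genes were higher and 261 lower, so the share of higher genes among those that passed was 64.2% against 48.7%, and the range rule then gave 2296 genes above and 840 below. The test also rested on every array. Without the day 6 CD49d+, CD73+, CD73- or Total array, 41, 9, 7 or 0 genes passed, and without the corresponding day 9 array, 111, 11, 6 or 1. Without the day 6 Total array, 3517 genes still had an unadjusted p under 0.05, against 4066 in the full fit. Leaving out an array left at most 3 genes past the test in any other list of protein-coding genes described after the keratinocyte list. Across the 13313 genes, which are not independent, the day 6 difference had a Pearson r of 0.749 with the day 9 difference and the same sign in 9405.

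Keratins and cornified envelope genes were among the members with the largest distances. Of 45 named genes on a list of keratinocyte and cornified envelope genes, 33 were above the floor on at least 1 array and 3 of these were at the floor in every sorted fraction. In the limma test 15 were higher in unsorted cells and 1 lower (Tgm3, an epidermal transglutaminase, −1.21 ± 0.119), against 4.16% and 4.38% of all genes. Dsg3, 1 of the 15, was at the floor in every fraction. Of the 16, 8 passed where the spread among fractions counted as error and 11 against the CD73 fractions only. The unsorted array lay above the sorted range in 22 of the 33, against 12.3% of all genes, and below it in 0. The median difference of the 33 was 0.55 log2 units, against −0.0012 over all genes tested. Leaving out an array left 0 to 8 genes of the list past the test against 16, with 8 without the day 9 CD49d+ array and 0 without either Total array or either CD73- array. The list includes Krt14 and Sprr1a, with which this comparison was proposed.

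Promoter sequences of 5 of these genes are shown because the same short motif recurs in 4 of them. Each is the 150 bases before a RefSeq transcription start (build GRCm38.p6), 5′ to 3′ on the gene's strand, and capitals mark matches to TGANTCA, the pattern bound by AP-1 (Fos and Jun dimers), which reads the same on both strands. Sprr1a lies at chr3:92485882-92486031, minus strand, and Sprr1b at chr3:92438780-92438929, minus strand. Krtdap lies at chr7:30787755-30787904, plus strand, Sbsn at chr7:30751321-30751470, plus strand, and Krt14 at chr11:100206031-100206180, minus strand. All but Sprr1a and Krt14 were chosen after their values were seen.
Sprr1a: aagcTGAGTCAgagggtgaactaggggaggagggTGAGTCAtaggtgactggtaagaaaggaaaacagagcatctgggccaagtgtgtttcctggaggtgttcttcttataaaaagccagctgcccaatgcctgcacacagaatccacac
Sprr1b: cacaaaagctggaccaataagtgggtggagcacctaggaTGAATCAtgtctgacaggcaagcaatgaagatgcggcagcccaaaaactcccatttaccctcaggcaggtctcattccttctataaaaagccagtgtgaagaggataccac
Krtdap: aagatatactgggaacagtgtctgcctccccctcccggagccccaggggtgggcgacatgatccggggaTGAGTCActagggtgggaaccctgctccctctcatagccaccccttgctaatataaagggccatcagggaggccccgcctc
Sbsn: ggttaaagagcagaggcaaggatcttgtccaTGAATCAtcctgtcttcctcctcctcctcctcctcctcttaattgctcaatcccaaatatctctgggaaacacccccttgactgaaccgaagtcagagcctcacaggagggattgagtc
Krt14: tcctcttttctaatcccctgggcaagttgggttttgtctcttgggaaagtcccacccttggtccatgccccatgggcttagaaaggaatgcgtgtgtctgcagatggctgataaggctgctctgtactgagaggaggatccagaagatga
The stretch of Sprr1a holds 2 matches, starting 146 and 116 bases before the start site. Sprr1b holds 1 at 111 bases, Krtdap 1 at 81 bases and Sbsn 1 at 119 bases before it, and the stretch of Krt14 holds none. In windows from 250 bases before to 50 after the start, the motif occurred in 8.97% of the 27025 genes with a window and in 6.3% of the 10442 tested genes with one. It occurred in 19 of the 57 genes above the sorted range by 0.5 or more that had a window (33.3%), in 5 of 7 such keratinocyte-list genes (71.4%), and in 5 of 137 genes below the range by 0.2 or more (3.65%). The other motif searched, the TATA box (TATAAA on either strand), was also more frequent in the sets above the range and less frequent in the set below it. It occurred in 13 of the 57 (22.8%), 3 of the 7 (42.9%) and 10 of the 137 (7.3%), against 9.07% of tested genes. The counts come from letters alone, and some genes have several windows.

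Krt14 encodes the acidic keratin of basal epidermal cells. At day 6 its intensity was 162.6 in CD49d+, 211.8 in CD73+ and 207.8 in CD73- cells against 942.5 in unsorted cells, and at day 9 it was 252.3, 239.3 and 211.8 against 989.3. Unsorted cells were high at both days, the 3 fractions were low and close together, and MEF, SC4 and ESC were as low as the fractions (181, 126.3 and 142.8). The difference was 2.19 ± 0.131 log2 units, or 4.55-fold (limma adjusted p = 0.00801).

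Sprr1a encodes a small proline-rich precursor of the cornified envelope. Its intensities were 118.4, 175.8 and 199.1 in CD49d+, CD73+ and CD73- cells at day 6 against 1853 in unsorted cells, and 164.9, 283.9 and 342.1 against 1682 at day 9. Within each day CD49d+ cells were lowest and CD73- cells highest among the fractions, but none came near the unsorted array. That the fractions of a day lay below it is the rule of membership itself. MEF, SC4 and ESC were at 156.8, 100 and 133.8, so no reference sample held the unsorted level. The difference was 3.13 ± 0.189, or 8.77-fold (limma adjusted p = 0.00801). Its neighbour Sprr1b was at the floor in CD49d+ and CD73+ cells of both days, at 152.3 and 120.3 in CD73- cells, and at 734 and 300.6 in unsorted cells.

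Krt6a, Krt6b, Krt16 and Krt17 are keratins of stressed or activated epidermis. Krt16 was at the floor in all 3 fractions at day 6 and at 104.5, 126.5 and 100 at day 9, against 368.4 and 376.2 in unsorted cells (1.83 ± 0.0819, adjusted p = 0.00423). Krt17 had 222.1, 209.6 and 275.4 against 1247 at day 6, and 801.6, 758.4 and 372.8 against 2181 at day 9. Its fractions also differed between days, with the day 9 poised fractions well above those of day 6, yet unsorted cells stayed above all of them (2.13 ± 0.324, adjusted p = 0.0309). Where the spread among fractions counted as error, Krt17 no longer passed (adjusted p = 0.0652). Krt6a, named after its values were seen, had 106.3 to 217.9 in the fractions and 337.8 and 461.5 in unsorted cells, and Krt6b did not pass (0.40 ± 0.117, limma adjusted p = 0.0945).

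Krt90, a keratin gene outside the list, was at 100 in all 6 sorted arrays and in MEF, SC4 and ESC. Unsorted cells had 747.4 at day 6 and 681.3 at day 9, at least 7.14-fold higher. It entered the analysis only through the unsorted arrays, so no p is given. It was the only gene among the 12 named for the largest distances that was at the floor everywhere except in unsorted cells. Asprv1, the protease that processes profilaggrin, was at or near the floor in every fraction (100 to 107.2) and at 414.3 and 340.2 in unsorted cells. Slurp1, a secreted protein of the upper epidermis, had 167.7, 224.6 and 193.1 against 1078 at day 6 and 168.9, 407.6 and 149.5 against 1207 at day 9 (2.47 ± 0.231, adjusted p = 0.0193). Among its fractions the day 9 CD73+ array was highest, and it did not pass where the spread among fractions counted as error (0.0659).

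Not all of these genes were uniformly low in sorted cells. Krtdap, a secreted keratinocyte differentiation protein, had 176.4, 493.5 and 877.3 in CD49d+, CD73+ and CD73- cells at day 6 against 1645 in unsorted cells, and 234.9, 380.5 and 641.7 against 1787 at day 9. Cnfn, which encodes the envelope protein cornifelin, had 203.3, 462.7 and 1245 against 2567, and 213.6, 319 and 523.7 against 1213. In both genes the order CD49d+, CD73+, CD73-, unsorted held at both days. Both passed the main test (adjusted p of 0.0191 and 0.0235) and neither passed when the spread among fractions counted as error (0.295 and 0.306). Sbsn and Dmkn, which lie beside Krtdap on chromosome 7, had fractions between 100 and 163.8, with 409.3 and 404.4 (Sbsn) and 361.7 and 302 (Dmkn) in unsorted cells. These 4 genes were named after their values were seen.

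**Figure D3:**
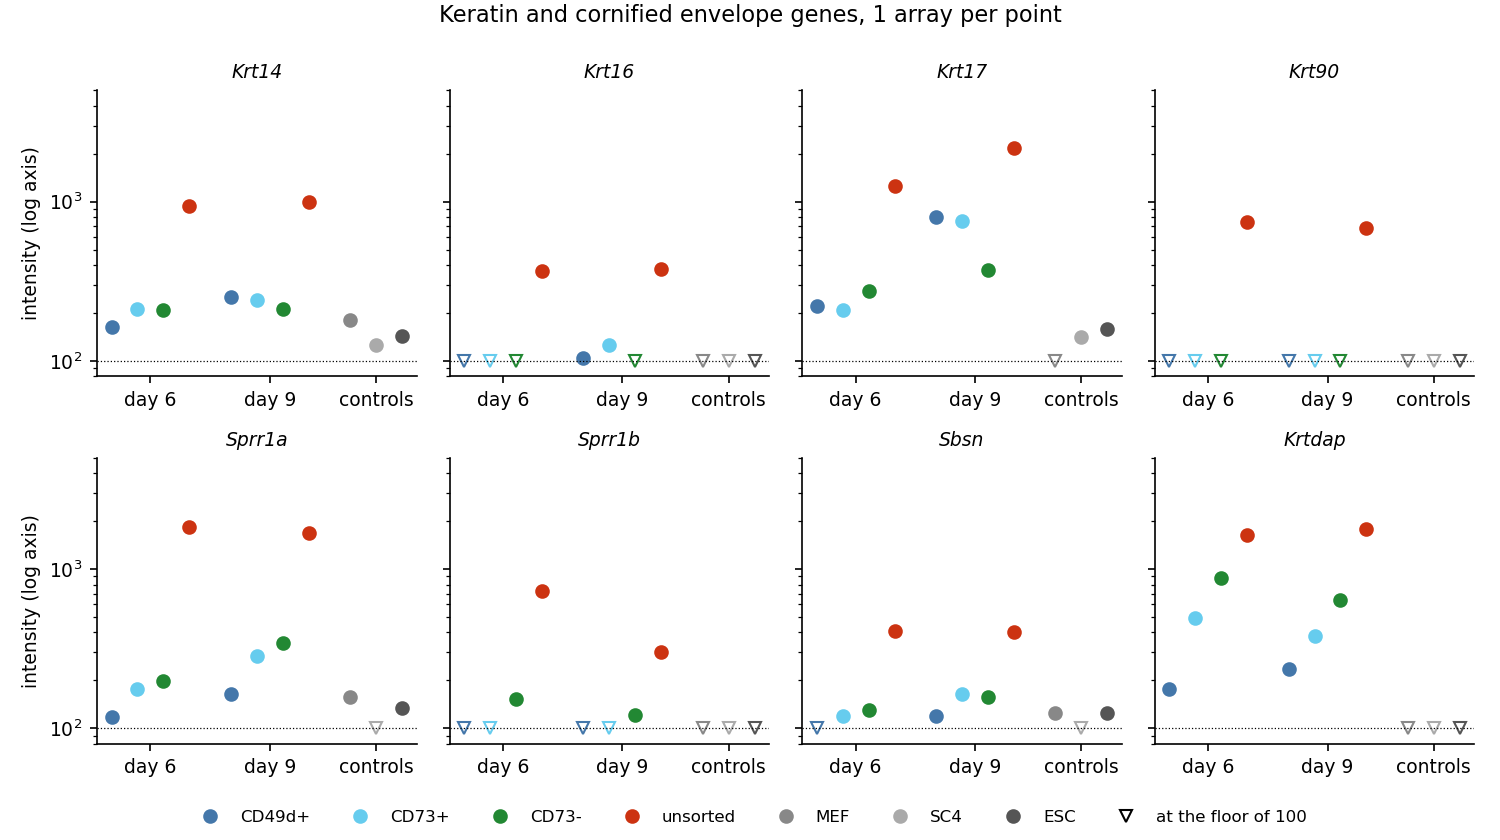
Intensity (log axis) of 8 keratin and cornified envelope genes on 11 arrays, 1 point per array, with sorted fractions in blue, light blue and green, unsorted cells in red, and the controls MEF, SC4 and ESC in grey from left to right. Open triangles are values at the floor of 100. In each panel the red points lie above the fractions of their day, and for Krt90 every other array is at the floor.

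Keratinocyte markers did not move as a group. Of the 6 keratinocyte markers all but Krt5 had a probe set of their own. The summed intensity of these 5 was 581 to 854 in the sorted arrays and 3155 and 3022 in unsorted cells at days 6 and 9. Krt14 and Sprr1a carried that sum. Dsg3, a desmosomal cadherin, was at 100 in all fractions and at 159.4 and 150.7 in unsorted cells, whereas Trp63, the basal epidermal regulator, and Krt15 were at the floor on all 8 arrays. Keratin and envelope transcripts were thus measured while these 2 markers were at the floor, which bounds their level and does not show their absence. The cells that held the keratin and envelope transcripts were not identified. In bulk RNA, fewer cells of a type and less RNA per cell cannot be told apart.

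Several of these genes are neighbours. Of the 92 genes above the range by 0.5 or more, 78 could be placed by gene order and 14 lay within 3 protein-coding genes of another. They were Krt19, Krt14, Krt16 and Krt17 on chromosome 11, Sbsn, Dmkn and Krtdap on chromosome 7, the kallikrein proteases Klk10, Klk8 and Klk7 also on chromosome 7, Psca and Slurp1 on chromosome 15, and Sprr1b and Sprr1a on chromosome 3. No such count over all genes is given, so whether 14 of 78 is more than usual was not tested. Of the 12 keratinocyte-list members at this distance, 6 were at the floor in MEF, SC4 and ESC alike, and in none did a control exceed all 6 sorted arrays.

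Genes of simple epithelia, the single-layered kind that appears when fibroblasts turn epithelial, moved less. Of 27 tested, 5 were higher and 2 lower (Ocln and Ehf) in the limma test, against 4.16% and 4.38% of all genes. By the range rule 10 lay above and 1 below, against 12.3% and 10.8%. The median difference was 0.14, or 0.0668 after quantile normalization. The 7 that passed became 3 with centred arrays, with no filter on dim genes or against the CD73 fractions only, and 2 with no day term. Only Cldn4 passed where the spread among fractions counted as error. Cldn4, a tight junction protein, had 127.7, 132.7 and 151.2 in the fractions against 352 at day 6, and 147.3, 153.2 and 175.5 against 500.1 at day 9 (1.51 ± 0.0792, adjusted p = 0.00548). Krt8, the type II keratin of simple epithelia, had 408.7, 543.4 and 340.4 against 831, and 677, 863.7 and 584 against 1372 (0.97 ± 0.0484, adjusted p = 0.00468). Unsorted cells were highest on their day for both genes, and ESC were above the day 6 unsorted array for both, at 1157 for Cldn4 and 995.8 for Krt8. Krt19 was 1.03 ± 0.0717 higher. Epcam, an epithelial adhesion molecule of pluripotent cells, lay inside the sorted range at both days (217.2 and 435.9).

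Aqp5, the water channel of glandular epithelia, was low and even across fractions, at 156.2, 126.8 and 158 at day 6 and 169.3, 140.3 and 159.3 at day 9, and reached 465.7 and 485.2 in unsorted cells (1.65 ± 0.0514, adjusted p = 0.00164). Klk8 had 100 to 109.4 in the fractions and 363.3 and 280.7 in unsorted cells. Mall, a membrane raft protein, had 103.8 to 224.1 in the fractions and 388.6 and 568.6 in unsorted cells. For all 3 genes the unsorted arrays of both days were above every sorted array of either day.

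Serpinb9b had the largest distance from the sorted range of any gene, taking for each gene the smaller of its distances at days 6 and 9. It encodes an intracellular serpin of the granzyme-inhibiting kind. Its intensities were 173, 111.6 and 100 in CD49d+, CD73+ and CD73- cells at day 6 against 1498 in unsorted cells, and 225.8, 225.8 and 139.7 against 1785 at day 9. The fractions were close to the floor with CD73- lowest, and unsorted cells were 2.98 log2 units or more above the highest of them at both days. SC4 was at 2195, above the unsorted arrays, with MEF at 591.3 and ESC at 202.4. The difference was 3.4 ± 0.155, or 10.6-fold (limma adjusted p = 0.00423). A second Serpinb9b probe set was at 100 on all 8 arrays, so the probe sets of this gene disagree, and their mean gives a difference of 1.70 (limma adjusted p = 0.00542).

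Other serpins differed less. Of 15 serpins tested 5 were higher and 0 lower in the limma test, against 4.16% and 4.38% of all genes. By the range rule 8 lay above and 0 below, against 12.3% and 10.8%. The median difference was 0.32, and 4 of the 15 were at the floor in every fraction. Serpinb2 and Serpinb5, 2 of the 5, were among those at the floor and so entered only through the unsorted arrays. Another of the 5 was Serpinb9b, with which this comparison was proposed. The 5 became 1 with centred arrays, and 2 with no filter on dim genes or among genes above the floor on all 8 arrays. In the model counting the spread among fractions 2 passed. Serpinb5 (maspin), an epithelial serpin, was at 100 in all fractions and at 128.1 and 139.6 in unsorted cells, at least 1.34-fold higher. Serpinb8 had 134.7 to 211.9 against 264.2 at day 6 and 142.8 to 295.4 against 490.3 at day 9 (0.88 ± 0.172, adjusted p = 0.0455), so its groups separated within a day but overlapped between days. Serpinb9, the closest relative on the list by name, had 187.2 and 258.2 in unsorted cells and did not pass (0.75 ± 0.222, adjusted p = 0.0993).

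Short non-coding RNAs gave the next group of large members, and here the controls mostly lay on the side of the unsorted cells. Of 219 short RNAs tested, 23 were higher and 8 lower in the limma test, against 4.16% and 4.38% of all genes. In 45 unsorted cells lay above the sorted range and in 12 below, against 12.3% and 10.8%. By 0.5 or more, 12 lay above it, against 0.691%. Of the 219, 7 were at the floor in every fraction. Among these was Rny1, 1 of the 23 and of the 12, which entered only through the unsorted arrays. The 23 and the 12 also include Rny3, with which this comparison was proposed. The median difference of the 219 was 0.0034. For the 12, SC4 was above all 6 sorted arrays in 12, MEF in 9, ESC in 9 and all 3 controls in 7. Over all genes tested these shares were 22.0%, 32.1%, 27.3% and 3.55%. Of all 1641 genes above the range they held for 537, 932, 617 and 149, because the rule itself picks genes with low sorted arrays.

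The Y RNAs, small RNA polymerase III transcripts bound by the Ro60 protein, were the most extreme class. Rny3 had 235.8, 100 and 100 in CD49d+, CD73+ and CD73- cells at day 6 against 1455 in unsorted cells, and 190.7, 100 and 109.8 against 1588 at day 9. The fractions were at or near the floor except for CD49d+. MEF (2223) was above unsorted cells, and SC4 (1044) and ESC (917) were below them but above every sorted array. The difference was 3.54 ± 0.101, or 11.6-fold (limma adjusted p = 0.00164). This was the largest mean difference of any gene tested when values at the floor are read as 100. Since 3 of the 6 sorted arrays were at the floor, the fold is a lower bound. Rny1 was at 100 on all 6 sorted arrays and at 469 and 274.6 in unsorted cells, at least 3.59-fold higher. Since it entered only through the unsorted arrays, no p is given. MEF and SC4 had 253.2 and 301.1 for Rny1 and ESC 101.8.

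Small nucleolar RNAs were split. The C/D kind guides 2′-O-methylation of ribosomal RNA and the H/ACA kind pseudouridylation. In the limma test 9 of 43 C/D RNAs were higher and 1 lower, and 7 of 24 H/ACA RNAs were higher and 1 lower, beside 4.16% higher and 4.38% lower over all genes. Where the spread among fractions counted as error, 4 and 3 passed. Median differences were 0.04 and 0.32.

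Snord89 had 323.5, 300.5 and 330.8 in the fractions against 1956 in unsorted cells at day 6, and 341, 247.7 and 328.5 against 1695 at day 9 (2.55 ± 0.0855, adjusted p = 0.00164). Unsorted cells were close to MEF, SC4 and ESC (1948, 1581 and 1708), and the 6 sorted arrays formed a separate low group. Snora34 had 227.8, 274 and 289.9 against 1201, and 264.3, 296 and 298.5 against 1537 (2.31 ± 0.0747, adjusted p = 0.00164). Here MEF, at 259.4, was as low as the fractions, and SC4 was at 1079. Snora44 showed the same order, with 1608 and 1176 in unsorted cells, 320.3 to 442.6 in the fractions and 388.1 in MEF.

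Scarna6, which guides modification of spliceosomal RNAs in Cajal bodies, had 160.7 to 230.3 in the fractions and 691 and 779.6 in unsorted cells (1.93 ± 0.0895, adjusted p = 0.00423). Rpph1, the RNA of RNase P, had 1914, 1368 and 762.7 against 3592 at day 6 and 2101, 2010 and 990.6 against 3359 at day 9 (1.29 ± 0.133, adjusted p = 0.0207). It was bright in every fraction, so the group was not limited to dim probe sets. Rpph1 was named after its values were seen and did not pass where the spread among fractions counted as error (adjusted p = 0.321).

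Snord13 ran the other way and was the gene farthest below the sorted range. This RNA, U13, takes part in acetylation of 18S ribosomal RNA. It had 2506, 2481 and 2556 in CD49d+, CD73+ and CD73- cells at day 6 against 637.4 in unsorted cells, and 2082, 2301 and 1860 against 437.1 at day 9. All 6 sorted arrays were high and close together, unsorted cells were low, and MEF (170.7), SC4 (686.1) and ESC (1315) were below every sorted array. It fell by 2.11 ± 0.0971 log2 units in unsorted cells, or 4.33-fold (limma adjusted p = 0.00423). For Snord13 as for Snord89, the sorted arrays thus stood apart from unsorted cells and from all 3 controls.

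**Figure D4:**
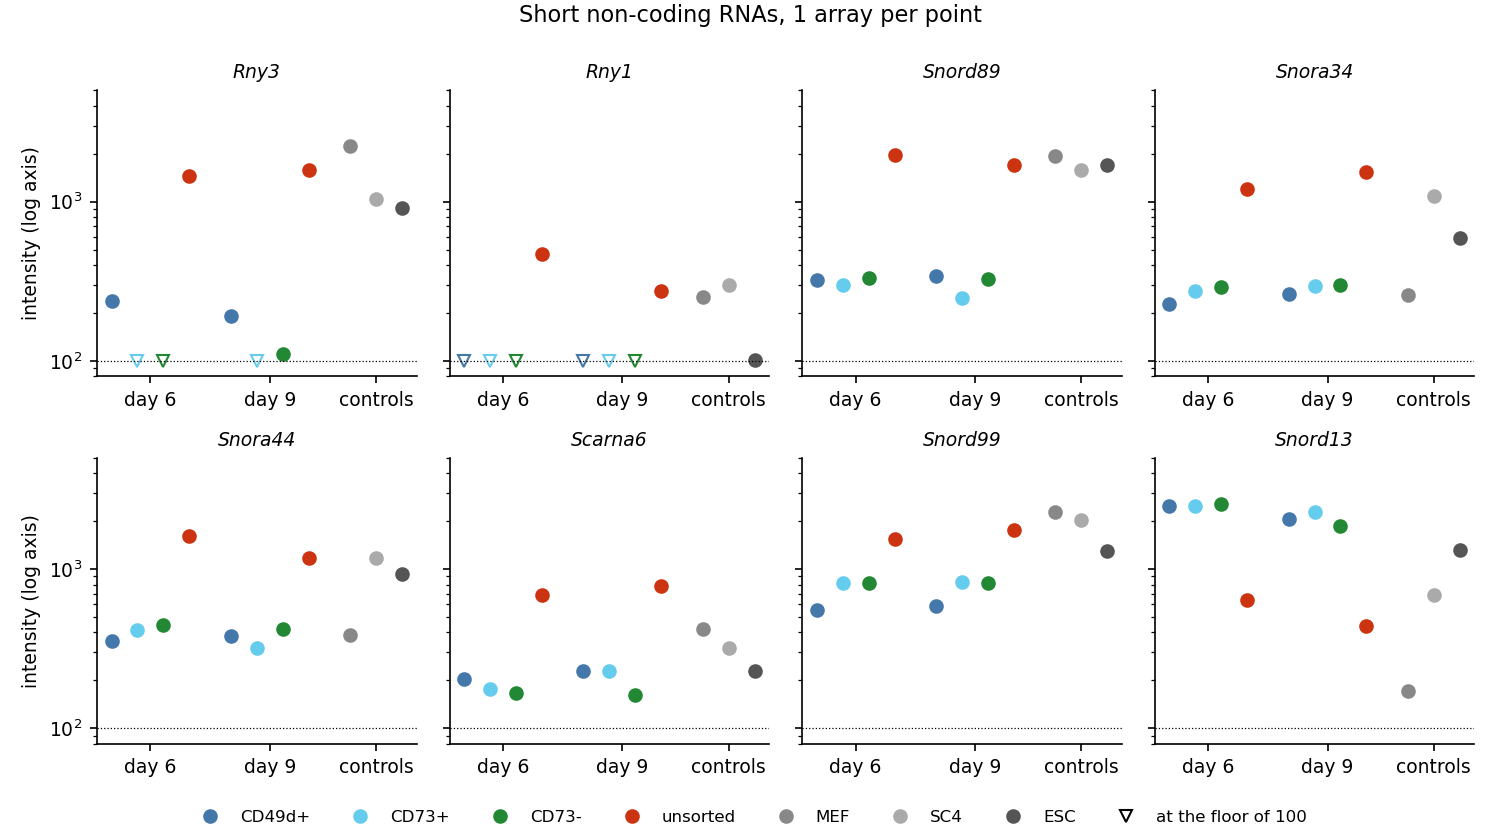
Intensity (log axis) of 8 short non-coding RNAs on 11 arrays, 1 point per array, coloured by population, with the controls MEF, SC4 and ESC from left to right in grey and values at the floor of 100 as open triangles. Unsorted cells lie above the fractions of their day in 7 panels and below them for Snord13, and the controls lie near the unsorted level for Rny3 and Snord89.

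MicroRNA probe sets had a median difference of −0.026. Of 138 tested, 1 was higher and 6 lower in the limma test, against 4.16% and 4.38% of all genes. By 0.5 or more, 1 lay below the sorted range, against 0.0376% of all genes. That was Mir7-1, a gene of miR-7, whose mature strands are given from RefSeq (GRCm38.p6) because only Snord13 lay farther below the sorted range among the short RNAs tested. Capitals mark the seed, bases 2 to 8. The probe set names the gene and does not separate precursor from mature strand.
miR-7a-5p: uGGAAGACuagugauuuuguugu
miR-7a-1-3p: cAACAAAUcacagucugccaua
Mir7-1 had 193.5, 245 and 198.7 in the fractions against 107.5 in unsorted cells at day 6, and 175.4, 200.2 and 206.6 against 100 at day 9. Unsorted cells were at or near the floor and the fractions were close together. It fell by 0.96 ± 0.0771 (adjusted p = 0.0166). Mir3097 had 126.7 to 336.5 and 158.4 to 443.6 in the fractions and 100 in both unsorted arrays (−1.08 ± 0.0939, adjusted p = 0.0185). Its difference was larger than that of Mir7-1 and its distance from the range smaller. The H/ACA RNA Snora30 had 172.7 to 216.2 against 123.6 and 126.2 (−0.59 ± 0.0815, adjusted p = 0.0271).

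Fibroblast and matrix genes had the largest median difference of the protein-coding lists. Of 42 tested, 5 were higher and 0 lower in the limma test, against 4.16% and 4.38% of all genes. The unsorted array lay above the sorted range in 13 and below it in 0, against 12.3% and 10.8%. Where the spread among fractions counted as error, 0 passed. The median difference was 0.78 log2 units. The 5 became 1 with centred arrays, 2 with no filter on dim genes, 14 against the CD73 fractions only and 15 among genes above the floor on all 8 arrays. MEF was above all 6 sorted arrays in 41 of the 42, against 32.1% of all genes. The 6 fibroblast markers had a summed intensity of 1344 to 6232 in the sorted arrays, 5347 and 8824 in unsorted cells and 31412 in MEF, so that of day 6 lay inside the sorted range and that of day 9 above it. Col1a1, a collagen I chain, had 1273 in unsorted cells at day 6, inside the range, and 2173 at day 9, above it, and did not pass (adjusted p = 0.0941).

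Efemp1 (fibulin 3), a matrix glycoprotein, had 636.2, 218.8 and 1552 in CD49d+, CD73+ and CD73- cells against 2444 in unsorted cells at day 6, and 245.9, 255 and 1420 against 3069 at day 9 (2.4 ± 0.348, adjusted p = 0.029). CD73- cells stood well above both poised fractions and below unsorted cells. Lox, which cross-links collagen, had 978.9, 476.5 and 525.1 against 1626, and 467.2, 437.1 and 811.4 against 2848 (1.88 ± 0.38, adjusted p = 0.049). Its level in MEF was 8431, above every other array.

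Prelp, a leucine-rich proteoglycan of connective tissue, had 265.5, 298.3 and 158.4 against 1094 at day 6 and 243.5, 329.5 and 178.3 against 1604 at day 9 (2.48 ± 0.131, adjusted p = 0.00548). Unsorted cells were high and MEF higher still, at 2300, with SC4 and ESC at 141.5 and 135.2. A second Prelp probe set was at the floor on all these arrays except the unsorted one of day 9, at 128, and gave a difference of only 0.18, so the probe sets of this gene disagree. S100a4, a calcium-binding protein of motile fibroblasts, had 109.8 to 201.4 in the fractions and 381.7 and 366.5 in unsorted cells (1.27 ± 0.18, adjusted p = 0.0284).

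Among genes for adhesion and proteolysis the median was also above 0, at 0.39. In the limma test 6 of 32 were higher and 0 lower, against 4.16% and 4.38% of all genes. By the range rule 12 lay above and 0 below, against 12.3% and 10.8%. The 6 became 4 with centred arrays, 1 with no filter on dim genes and 9 against the CD73 fractions only. Timp2, a metalloproteinase inhibitor, had 1244, 452.7 and 804.5 against 1983, and 760.8, 530.4 and 1027 against 2849 (1.65 ± 0.248, adjusted p = 0.0304). Adamts5, an aggrecan-cleaving protease, had 100 to 153.3 in the fractions, 427.8 and 255 in unsorted cells and 2944 in MEF (1.49 ± 0.226, adjusted p = 0.0307). Timp3 lay above the range at both days (1579 and 3107) but did not pass (1.14 ± 0.276, adjusted p = 0.0692). Of 16 smooth muscle contractile genes 5 were higher and 0 lower, against the same 4.16% and 4.38%. They had 7 above the range, against 12.3%, and a median of 0.52. The 5 became 3 after quantile normalization, 1 with no filter on dim genes and 0 with centred arrays. The largest difference there was Acta2 (1.81 ± 0.269, adjusted p = 0.0299), whose day 6 unsorted value of 4597 lay inside the sorted range, 463 to 5172. None of the adhesion or contractile genes passed where the spread among fractions counted as error.

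Of the 92 genes above the range by 0.5 or more, 68 were neither short RNAs nor on the keratinocyte list. MEF was above all 6 sorted arrays in 38 of the 68 and at least 2-fold above ESC in 33, against 32.1% and 12.3% of all genes. Of the 1641 genes above the range at any distance, these held for 932 and 326. The rule picks genes with low sorted arrays, so part of such counts is set by it. Among these members the 3 kinds differed in the controls. The keratinocyte genes were high in none of them, the short RNAs were mostly high in all, and many of the others were high in MEF. For these others, 38 of 68 was a share near the 932 of 1641, so being high in MEF was not particular to them. Igfbp6, which binds insulin-like growth factors, is one of the last kind (133.7 to 163.1 in the fractions, 397.6 and 470.7 in unsorted cells, 1083 in MEF), and so is the chemokine Ppbp (100 to 186.8, then 448.6 and 589.8, and 1076). Both were named after their values were seen.

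**Figure D5:**
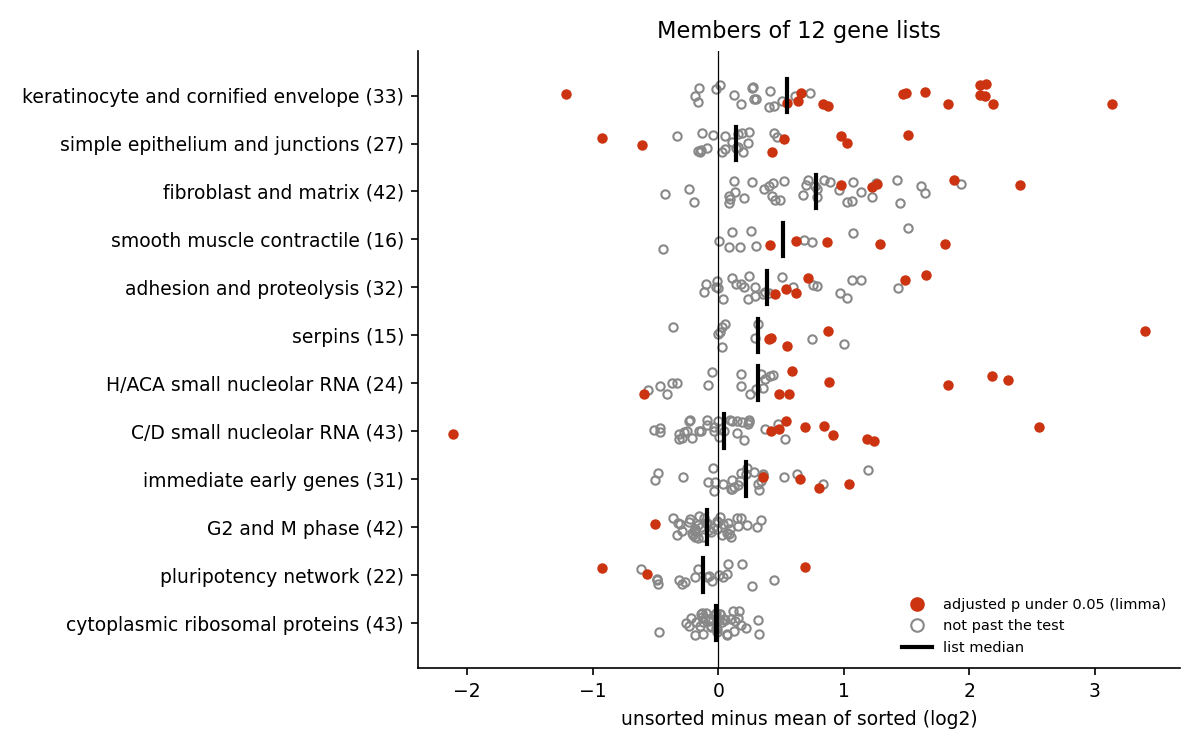
Unsorted minus the mean of the sorted fractions (log2, horizontal axis) for each tested member of 12 gene lists, with the number of members in brackets. Filled red points passed the limma test, open points did not, and black bars are list medians, which run from −0.13 for the pluripotency network to 0.78 for fibroblast and matrix genes.

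Lists of inflammatory and stress genes are short, so their large members are given with the share of all genes. By 0.5 or more, 2 of 25 chemokine and inflammatory genes lay above the range. For heat shock genes it was 1 of 14, for oxidative stress genes 1 of 16 and for immediate early genes 0 of 31. The share over all genes was 0.691%. In the limma test 4 of the 25 chemokine and inflammatory genes were higher and 0 lower, against 4.16% and 4.38% of all genes. At any distance 5 lay above the range and 0 below, against 12.3% and 10.8%, and the median was 0.11. The 4 became 2 with centred arrays, after quantile normalization, with no filter on dim genes or against the CD73 fractions only. Ptgs2, the inducible cyclooxygenase, had 777.7, 677.5 and 655.1 against 1559, and 597.9, 679.6 and 845.3 against 1859 (1.28 ± 0.153, adjusted p = 0.0232), with unsorted cells above every sorted array of either day. Ccl2, a monocyte chemokine, had 665.4, 168 and 587.9 against 1080, and 587.9, 295 and 770.8 against 1269 (1.37 ± 0.186, adjusted p = 0.0271), with CD73+ cells the lowest fraction at both days. Ptgs2 alone passed where the spread among fractions counted as error. Of 22 interferon response genes 0 passed the limma test, against 8.54% of all genes. An unadjusted p under 0.05 was found for 2, and 1 passed against the CD73 fractions only.

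Immediate early genes respond within minutes to growth factors and to handling of cells, and heat shock genes to misfolded protein. Among 31 immediate early genes 4 were higher in unsorted cells and 0 lower in the limma test, against 4.16% and 4.38% of all genes. By the range rule 7 lay above and 1 below, against 12.3% and 10.8%, and the median difference was 0.22. Against the CD73 fractions only, 7 passed. The largest called differences were Gadd45b (1.04 ± 0.136) and Atf3 (0.81 ± 0.106). Gadd45b in unsorted cells was close to CD73- cells, at 948.9 against 918.6 at day 6 and 723.2 against 759.6 at day 9. Its day 9 value thus lay inside the sorted range. Hspa1b, an inducible Hsp70 gene, had 707.7 to 794.6 in the fractions against 1190 at day 6 and 764 to 1035 against 1567 at day 9 (0.74 ± 0.122, adjusted p = 0.0349). Of 14 heat shock genes 2 were higher and 0 lower, against the same 4.16% and 4.38%. The 2 became 1 against the CD73 fractions only, with no day term or with no filter on dim genes, and 0 with centred arrays. None of the immediate early or heat shock genes passed where the spread among fractions counted as error.

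Of 16 metallothionein and oxidative stress genes 4 were higher and 0 lower, against 4.16% and 4.38% of all genes. Nqo1, a quinone reductase induced by NRF2, was the largest member among them. It had 293, 234.7 and 245.2 against 791.4 at day 6 and 216.6, 375.3 and 350.2 against 950.7 at day 9 (1.63 ± 0.221, adjusted p = 0.0267). Unsorted cells were above all sorted arrays and also above MEF, SC4 and ESC, of which SC4 was highest at 661.4. The NRF2 target Hmox1 lay above the range at both days but did not pass (0.55 ± 0.154, adjusted p = 0.0909).

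Protein-coding genes below the sorted range differed by small amounts. At a distance of at least 0.2 log2 units there were 167 genes below (1.25%), with a median difference of −0.50, against 354 above (2.66%) with a median of 0.64. Of the 167, 149 passed the limma test, where 4.38% of all genes were lower. The test reads the same values that chose the 167, so that count is no support. MEF was below all 6 sorted arrays in 125 of the 167, against 35.6% of all genes and 919 of the 1441 below the range at any distance. Only 9 of the 1441 genes below the range were at the floor on the unsorted arrays of both days.

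Sgo2a, a shugoshin that protects centromeric cohesin, had 763.1, 835.7 and 636.3 in the fractions against 414.9 in unsorted cells at day 6, and 849.4, 877.7 and 725.2 against 387.3 at day 9. Unsorted cells were lowest at both days, MEF lower still (168.1), and SC4 and ESC as high as the fractions. It fell by 0.95 ± 0.072 (limma adjusted p = 0.014) and also passed where the spread among fractions counted as error (0.0448). Fut9, the fucosyltransferase that makes the SSEA-1 epitope of pluripotent cells, had 334.6, 315.6 and 259.4 against 174.3, and 468.3, 409.8 and 312.8 against 195.4 (−0.90 ± 0.0753, adjusted p = 0.0173). It was at the floor in MEF.

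Ticrr, needed to start DNA replication, had 1044, 1633 and 1044 against 775.6, and 1089, 1454 and 1018 against 511.7 (−0.92 ± 0.136, adjusted p = 0.0296). CD73+ cells were the highest fraction at both days. Mki67, the proliferation antigen, had 2763 to 3179 in the fractions against 2283 at day 6 and 2839 to 2957 against 1851 at day 9 (−0.51 ± 0.0836, adjusted p = 0.0349). It was the only 1 of 42 G2 and M phase genes to pass, where 8.54% of all genes did, and 0 passed against the CD73 fractions only. Of those 42, 7 lay below the range and 0 above, against 10.8% and 12.3% of all genes. Their median of −0.09 became 0.0023 when the arrays were centred. Of 33 S phase genes 0 passed the limma test, against 8.54% of all genes. An unadjusted p under 0.05 was found for 8, and 2 passed against the CD73 fractions only. Kmt2e, a chromatin reader, had 1275, 1753 and 1108 against 805.2 and 1161, 1943 and 1126 against 665.5 (−0.89 ± 0.0927, adjusted p = 0.0207).

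The other lower genes named by distance were Zfp955a, a zinc finger gene (−1.01 ± 0.258, which did not pass), Apip, an enzyme of methionine salvage (−0.58), Snx18, a sorting nexin (−0.72), Dido1 (−0.60), the complement regulator Cd46 (−0.70), the acetyltransferase subunit Naa30 (−0.94), the vesicle tethering protein Trappc2 (−0.91) and the ETS factor Etv1 (−0.64). All but Zfp955a passed the limma test, and of all lower protein-coding genes named here Sgo2a alone passed where the spread among fractions counted as error. For Cd46 the unsorted arrays of both days were at the floor, against 134.1 to 218.1 in the fractions, so its fold of 1.62 is a lower bound.

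Of 22 pluripotency genes tested 1 was higher (Utf1, 0.69) and 2 lower (Tet2, −0.93, and L1td1, −0.57), against 4.16% and 4.38% of all genes. None of the 3 lay outside the sorted range at both days. With centred arrays or with no day term 1 passed. Lin28a, Cdh1 and Klf4 lay above the range at both days, by at least 0.12, 0.07 and 0.0068, without passing, and 0 genes of the list lay below it. Over all genes 12.3% lay above and 10.8% below. The list of cytoplasmic ribosomal protein genes also held the mitochondrial Mrpl23. Of its 43 genes 0 passed the limma test (5 at an unadjusted p under 0.05), against 8.54% of all genes. By the range rule 4 lay above and 4 below, against 12.3% and 10.8%. Cholesterol synthesis genes had 0 of 19 past the test (5 unadjusted), against the same 8.54%, and a median of −0.15, or −0.051 when centred. Unsorted cells lay above the sorted range in 0 of these 19 and below it in 2, against 12.3% and 10.8%. For the other cell types checked, the summed markers of unsorted cells lay inside the range of the same day's fractions at both days for endothelial, skeletal muscle and neural markers. The adipocyte sum was 439 against 400 to 423 in the fractions at day 6 and 487 against 400 to 530 at day 9, where 400 means all 4 markers at the floor. For macrophage and blood markers it was 1027 against 1046 to 1259 at day 6 and 1174 against 1172 to 1294 at day 9, with Ptprc, Csf1r, Adgre1 and Tyrobp at the floor on all 8. Simple epithelium markers summed to 1626 in unsorted cells against 945 to 1211 in the fractions at day 6, and to 2549 against 1500 to 2128 at day 9, above the range at both days. The part of any of these cell types in the differences was not tested.

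Second probe sets allowed a limited check. Among genes above the range at any distance, 85 further probe sets were measured, of which 68 had a positive difference and 25 lay above the range themselves, against 1 below. Among genes below the range 59 were measured, of which 19 had a positive difference, 10 lay below and 4 above. Over all 597 further probe sets measured, 317 had a positive difference, 64 lay above and 42 below. At a distance of 0.5 or more, 4 were measured above the floor, for Ccdc80, Prss23, Prelp and Eif4a1, and another 2, for Serpinb9b and Cd209a, were at the floor on all 8 arrays. Those of Ccdc80 and Prss23 lay above the range too, by 0.48 and 0.65, and those of Prelp and Eif4a1 did not.

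At the edge of the rule the distances are minute. The members closest to it were Rac1, whose day 6 unsorted array lay 3.3e-05 log2 units below the nearest fraction, and Cerk, at 0.00015. Just outside it were 9530068E07Rik and Acot4, whose unsorted array equalled a sorted one on 1 of the days. The full count of 3082 therefore describes order within each day, not size.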

How the data were processed

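RNA from 11 mouse cell samples was measured on 1 array each, and 8 arrays entered the comparison. The values are linear intensities for 41345 probe sets as deposited by the authors, with a floor of 100. The submitters' processing notes name Partek, with no version. Summarisation and scaling were not given in the sources used here. Nothing was rescaled in the main analysis, so a scaling difference between arrays would move all its differences. Platform annotation gave 1 symbol to 23521 probe sets, several to 1814 and none to 16010, and only the first were used, for 22180 genes. Where a gene had several probe sets, that with the highest mean on all 11 arrays was read, and 13313 genes above the floor on at least 1 of the 8 arrays were tested.

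log2 of the deposited intensities was fitted with limma 3.58.1 in R 4.3.3 (lmFit, eBayes; 4 populations and 2 days, 3 residual degrees of freedom, prior 2.12), with Benjamini-Hochberg adjustment over all genes, and was tested on simulated data. The p-values reflect only how well the 2 days agree, a spread that may be technical. Genes were named by marker, by the smaller of the 2 days' distances (12 protein-coding genes and 6 short RNAs each way) and within each list (up to 4 by distance of at least 0.2, up to 2 by test). Others named are said to be chosen after their values were seen. Members and lists were chosen with earlier results of these data known. Alternatives were centring, quantile normalization, other filters, probe set means, other models, CD73 fractions only and leaving out each array. Promoter and microRNA sequences are from RefSeq tables of GRCm38.p6, and the gene order comes from RefSeq.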

Additional observations from a re-analysis of the deposited data

How the results depend on the processing

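Each setting below changed 1 choice. The count of 1137 genes past the limma test became 730 with centred arrays, 454 with no filter on dim genes and 63 where sorted cells were fitted as 1 group. It was within 1.5 times under quantile normalization, a stricter filter, no day term, CD73 fractions only and probe set means (841 to 1393). Leaving out 1 array gave 0 to 111, with only 2 residual degrees of freedom left. The count of 3082 genes outside the sorted range became 5870 against the CD73 fractions only, and 521, 97 and 35 at distances of at least 0.2, 0.5 and 1. Leaving out 1 sorted array gave 3148 to 4628, the highest without the day 6 CD49d+ array. Fewer sorted arrays make a narrower range. The rule cannot be applied without a Total array. Counts at 0.5 and 1, checked in an addition made after seeing the data, were 95 to 108 and 33 to 36 under centring, quantile normalization and probe set means.

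Of the 87 named genes, 86 kept their direction under every setting run for them, which was 16 for 68 of the 87 and 15 for the other 19. Nt5e, at −0.032 and not past the test, became 0.063 when centred, 0.43 against CD73 fractions only, 0.026 without the day 6 CD73- array and 0.23 without the day 6 Total array (−0.29 to 0.23 over all arrays left out). Arrays were paired by day only, through the day term and the range rule, and each group has 1 array. Dim signal limits the rest: 30 of the 92 genes above the range by 0.5 or more had a sorted array at the floor, where a difference is understated. Values at the floor also hide spread between the days, so standard errors and p-values of genes such as Krt16, Rny3, Cd46 and Mir3097 may be too small.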
